A study of Mus musculus with 6 samples.

Results

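Pcdhga1, Pcdhga2, Pcdhga3, Pcdhga4, Pcdhga5 and Pcdhga6 are the first 6 gamma-A genes of the clustered protocadherins, and their RNA was compared between control and Mphosph8 mutant mouse brains. They were chosen by symbol, 6 of the 54532 gene identifiers in each file, and all 6 passed the filter on low counts. RNA sequencing of polyadenylated RNA was done on whole brains of C57BL/6J mice at postnatal day 14, 1 library per animal. The 3 control animals had the genotype Mphosph8fl/+ Nestin-Cre+ and the 3 mutant animals Mphosph8fl/fl Nestin-Cre+, so every animal carried the Cre transgene and each control retained 1 unfloxed Mphosph8 allele. The study's text names the controls by the transgene alone and calls the animals littermates. The Nestin promoter drives Cre in neural progenitors, and cells of other origin in the brain, such as microglia and vessel cells, keep the gene. Mphosph8 encodes MPP8, a chromodomain protein that binds trimethylated lysine 9 of histone H3 and belongs to the HUSH silencing complex.

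Clustered protocadherins are cell surface adhesion proteins of neurons. Each gamma variable gene has its own promoter and a long first exon that encodes the extracellular cadherin repeats, the membrane span and part of the cytoplasmic tail, and that exon is spliced to short exons shared by the whole gamma array. Single neurons choose among the variable promoters largely at random, a choice in which CTCF, cohesin and DNA methylation take part, and the proteins bind their own kind on neighbouring membranes, which lets the branches of one neuron recognise and avoid each other.

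The 6 libraries held 12956880 to 13668385 counts in mutant brains and 13711891 to 15223424 in control brains. Levels are given as CPM, which are counts scaled to a common effective library size, and p-values come from edgeR's quasi-likelihood test over 16731 genes with Benjamini-Hochberg adjustment. A gene is called when its adjusted p is below 0.05 and its change is over 2-fold. The mean level of the targeted gene Mphosph8 was 58.4 ± 11.3 CPM for controls and 28.9 ± 3.63 CPM for mutants (SD over 3 libraries), and its fitted log2 fold change was -1.02 ± 0.12 (SE). Control replicate 3 differed from the other 5 libraries in having 3641 counts from Y-linked genes and 27 from Xist, against 0 or 1 and 11130 to 17697. Neuronal markers were present at similar summed levels, 4672 to 4858 CPM in control and 4660 to 4888 CPM in mutant libraries. The summed level of 8 oligodendrocyte markers was 21256 to 25524 CPM in control and 17055 to 19658 CPM in mutant libraries, and that of 4 choroid plexus markers was 1426 to 1719 against 1053 to 1260 CPM. Neither of those 2 sums overlapped between the groups, and their part in the results on the protocadherins was not tested. Most of the choroid plexus sum came from Ttr, named here for that reason, at means of 1498 CPM in control and 1100 CPM in mutant libraries. The levels of the other choroid plexus markers, Folr1, Kl and Clic6, each overlapped between the groups. In whole brain, more cells with a transcript and more of it per cell cannot be told apart.

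Of the 6 genes, 4 were called higher in mutant brains, Pcdhga1, Pcdhga2, Pcdhga3 and Pcdhga6, and none lower. Over all tested genes 0.353% were called higher. Pcdhga4 rose by less than 2-fold, and Pcdhga5 did not pass the test. An adjusted p below 0.05 with a higher level was found for 5 of the 6, against 0.532% of all tested genes. In those 5 the lowest mutant library stood above the highest control library, which held for 6.23% of all tested genes. The median log2 fold change of the 6 was 1.46, while that of all tested genes was -0.0073.

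**Figure D1:**
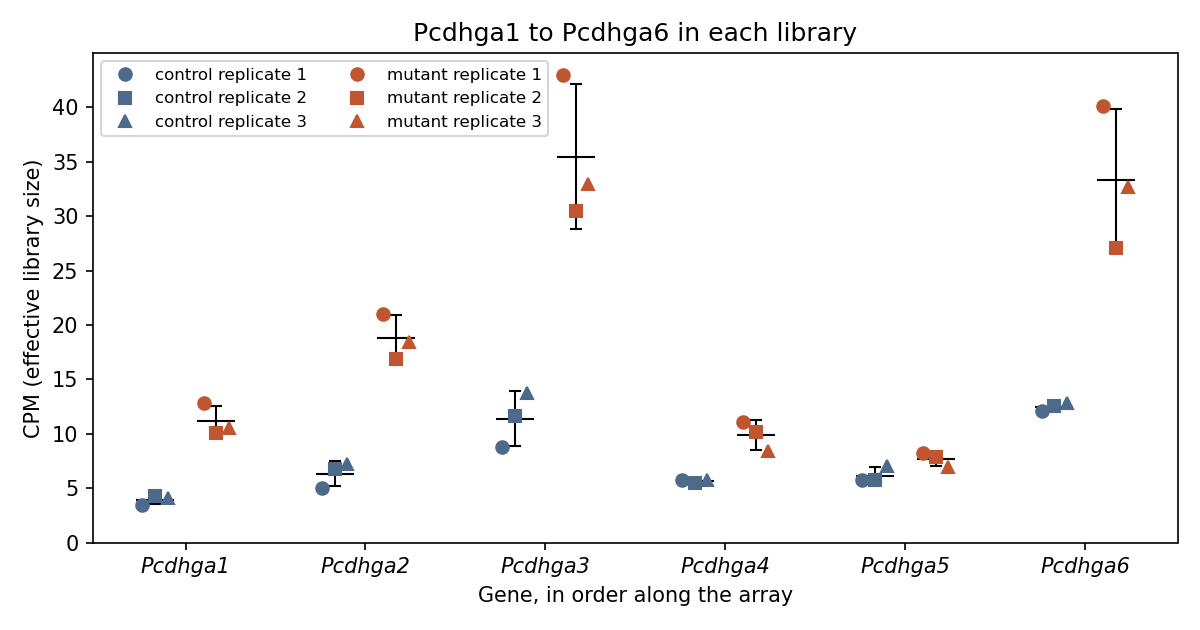
Level of each gene in each library, in CPM of the effective library size, with the 3 control libraries in blue and the 3 mutant libraries in orange. Horizontal lines are group means and bars are 1 SD (n = 3). Mutant libraries lie above all control libraries for every gene but Pcdhga5, and mutant replicate 1 is the highest mutant library for all 6.

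The genes lie on the plus strand of chromosome 18 (GRCm38) in the order of their numbers, with Pcdhgb1 between Pcdhga3 and Pcdhga4 and Pcdhgb2 between Pcdhga4 and Pcdhga5. Pcdhga1 (ENSMUSG00000103144, chr18:37661793-37841873) is the first gene of the gamma array. Its level was 3.46, 4.25 and 4.12 CPM in control replicates 1 to 3 and 12.8, 10.1 and 10.5 CPM in mutant replicates 1 to 3. All mutant values lay well above all control values, and the group means of 3.94 ± 0.424 and 11.1 ± 1.45 CPM (SD, n = 3) gave a log2 fold change of 1.497 ± 0.161 (SE, edgeR adjusted p = 2.99e-05). It was the least abundant of the 6 in control brains. Of the 3247 bases that only Pcdhga1 uses, 406 lie opposite an exon of the antisense gene Gm37118, which had 4 counts in all 6 libraries together.

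Pcdhga2 (ENSMUSG00000103332, chr18:37668953-37841870) starts 7.16 kb further along. Control libraries had 5.05, 6.74 and 7.22 CPM and mutant libraries 21.03, 16.9 and 18.5 CPM. The groups were far apart, with means of 6.34 ± 1.14 and 18.8 ± 2.10 CPM and a log2 fold change of 1.57 ± 0.15 (edgeR adjusted p = 4.91e-06). Pcdhga3 (ENSMUSG00000104346, chr18:37674307-37841873) had 8.78, 11.6 and 13.8 CPM in control and 43.0, 30.5 and 32.9 CPM in mutant libraries. It showed the largest change of the 6, from 11.4 ± 2.50 to 35.5 ± 6.65 CPM, a log2 fold change of 1.64 ± 0.15 (edgeR adjusted p = 4.91e-06). Pcdhga3 also varied most among the control libraries, where replicate 1 was lowest and replicate 3 highest.

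Pcdhga6 (ENSMUSG00000103793, chr18:37707039-37841873) was the most abundant of the 6 in control brains. Control libraries had 12.1, 12.5 and 12.8 CPM and mutant libraries 40.1, 27.1 and 32.7 CPM. Controls were close together and mutants spread widely above them, at means of 12.5 ± 0.363 and 33.3 ± 6.54 CPM with a log2 fold change of 1.41 ± 0.13 (edgeR adjusted p = 4.91e-06). Counting error alone gives a mutant SD of 1.59 CPM for Pcdhga6 and 1.64 CPM for Pcdhga3, so the mutant brains differed from each other by more than counting error for both genes.

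Pcdhga4 (ENSMUSG00000103677, chr18:37685210-37841873) changed less. Its level was 5.78, 5.49 and 5.74 CPM in control and 11.1, 10.2 and 8.43 CPM in mutant libraries. The groups did not overlap, and the mean went from 5.67 ± 0.157 to 9.90 ± 1.36 CPM, a log2 fold change of 0.80 ± 0.15 (edgeR adjusted p = 0.0144). Leaving out control replicate 1, 2 or 3 or mutant replicate 2 gave log2 fold changes of 0.81, 0.78, 0.81 and 0.78 with edgeR adjusted p = 0.0522, 0.0793, 0.0647 and 0.0750. Of the 2608 bases of its first exon, 1038 also lie in an exon of Pcdhgb1, whose log2 fold change was -0.16 ± 0.21. How reads that fall in exons of several genes were treated is not given in the sources used here, and the part of this overlap in the value of Pcdhga4 was not tested.

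Pcdhga5 (ENSMUSG00000103567, chr18:37694380-37841873) was the exception. It had 5.72, 5.71 and 7.02 CPM in control and 8.24, 7.84 and 6.98 CPM in mutant libraries. Control replicate 3 and mutant replicate 3 were nearly equal, so the groups overlapped. The means were 6.15 ± 0.753 and 7.68 ± 0.642 CPM, and the log2 fold change was 0.32 ± 0.16 (95% interval 0.014 to 0.622, edgeR adjusted p = 0.784). The upper limit lay below the lower limits of the 4 called genes, which were 1.16 to 1.34.

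Whether the genes differed among themselves was asked with the log2 ratio of 2 genes within each library, which does not depend on library size, for all 15 pairs. The change of that ratio from control to mutant was tested by permuting the 6 libraries exactly, two-sided, where the smallest p that can be reached is 0.1, so that no pair could pass 0.05. In 9 pairs the library ratios did not overlap between the groups (exact p = 0.1, adjusted over the pairs p = 0.167). These were the 8 pairs that set Pcdhga4 or Pcdhga5 against one of the called genes, and Pcdhga4 against Pcdhga5 itself. The ratio of Pcdhga3 to Pcdhga5 changed most, by 1.32 on the log2 scale, and that of Pcdhga6 to Pcdhga5 by 1.07. Against Pcdhga4, the ratios of Pcdhga3 and Pcdhga6 changed by 0.85 and 0.60. The ratio of Pcdhga4 to Pcdhga5 changed by 0.47. Among Pcdhga1, Pcdhga2, Pcdhga3 and Pcdhga6, 0 of the 6 pairs were free of overlap, and the largest change there was 0.25, for Pcdhga3 against Pcdhga6. The grouping of the pairs was made after the values were seen.

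**Figure D2:**
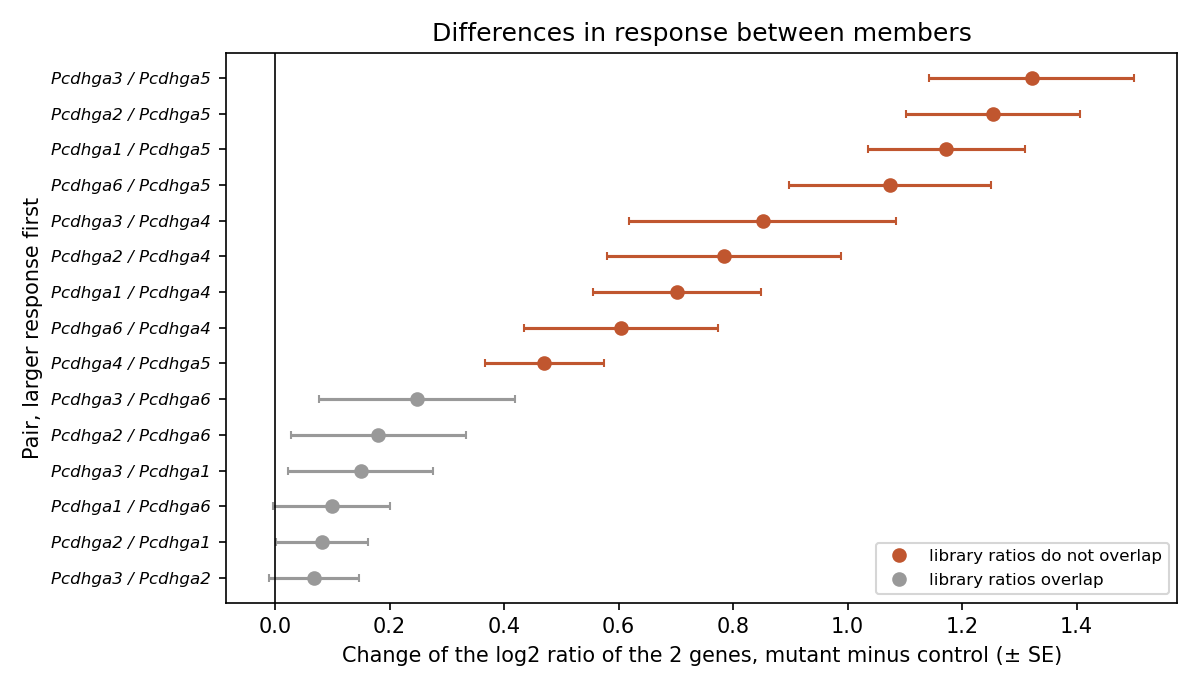
Change of the within-library log2 ratio of 2 genes between mutant and control brains, for all 15 pairs, with the gene of larger response named first. Points are differences of group means and bars are 1 SE from the SDs of 3 control and 3 mutant libraries. Pairs with Pcdhga5 reach the largest differences, up to 1.32, and the 6 pairs in grey among the called genes lie at or below 0.25.

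The summed level of the 6 genes was 40.9, 46.4 and 50.7 CPM in control and 136, 102.5 and 110.1 CPM in mutant libraries. Every mutant library was above every control library, and the mean of 116 ± 17.8 CPM was 2.53 times the control mean of 46.0 ± 4.91 CPM. Pcdhga3 supplied 34.2% of the gain, Pcdhga6 29.6%, Pcdhga2 17.7% and Pcdhga1 10.2%. Pcdhga4 and Pcdhga5 supplied 6.01% and 2.18%. Within the total, the share of Pcdhga3 went from 24.6% to 30.4% on average, while that of Pcdhga5 went from 13.4% to 6.68% and that of Pcdhga4 from 12.4% to 8.57%. The share of Pcdhga1 went from 8.58% to 9.60% and that of Pcdhga2 from 13.7% to 16.2%. The shares of all these genes did not overlap between the groups. Only the share of Pcdhga6 did, at 25.3% to 29.6% in control and 26.4% to 29.7% in mutant libraries.

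**Figure D3:**
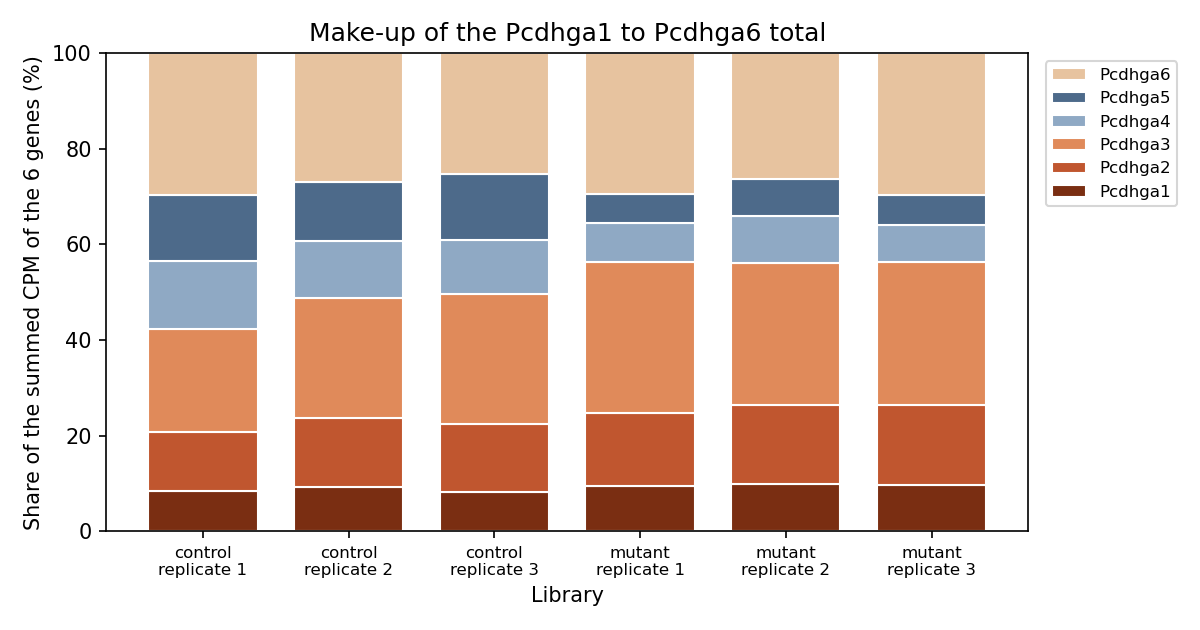
Make-up of the summed CPM of the 6 genes in each library, in percent. Pcdhga4 and Pcdhga5 (blue) take a smaller share in each of the 3 mutant libraries than in any control library, and Pcdhga1, Pcdhga2 and Pcdhga3 a larger one.

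Levels of different genes were compared per kilobase of the bases that a single gene uses. For Pcdhga4 these are 1570 bases, without the 1038 that its first exon shares with Pcdhgb1. Its values hold only if reads in the shared bases were not counted for it, which the sources used here do not state. The same condition holds for all 6 genes, because the whole gamma array shares its last exons. Reads in those exons, if counted in full for every gene, would be in the counts of each. Control libraries had 24 to 32 counts for Pcdhgb8 and 2228 to 2609 for Pcdhgc3. The treatment of such reads was not tested. If the reads shared with Pcdhgb1 were counted for Pcdhga4, its level per kb is too high and its place in the order may be lower. In control brains the order was Pcdhga6 at 4.78 ± 0.139, Pcdhga3 at 4.38 ± 0.963, Pcdhga4 at 3.61 ± 0.0997, Pcdhga2 at 2.46 ± 0.442, Pcdhga5 at 2.42 ± 0.296 and Pcdhga1 at 1.21 ± 0.130 CPM per kb (SD, n = 3). Neighbours overlapped except at the steps from Pcdhga4 to Pcdhga2 and from Pcdhga5 to Pcdhga1. In mutant brains Pcdhga3 stood first at 13.6 ± 2.56, followed by Pcdhga6 at 12.7 ± 2.50, Pcdhga2 at 7.30 ± 0.815, Pcdhga4 at 6.31 ± 0.865, Pcdhga1 at 3.43 ± 0.447 and Pcdhga5 at 3.02 ± 0.252 CPM per kb. Here only the steps from Pcdhga6 to Pcdhga2 and from Pcdhga4 to Pcdhga1 were free of overlap. In these orders Pcdhga5 thus moved from the fifth to the last place, without a gap to Pcdhga1. Its control place depends on that of Pcdhga4.

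The 6 first exons are alike in size and sequence. Their coding parts span 2412 to 2424 bases and their nucleotide identity ranges from 70.0% to 73.5% over the 15 pairs, the highest being Pcdhga3 with Pcdhga4. At most 1.45% of the words of 50 bases in the bases of a single gene recur in another gene, 50 bases being the length of the reads. GC content of those bases was 51.8% in Pcdhga4 and 51.3% in Pcdhga5, within the 47.4% to 53.1% of the called genes. The ratio of observed to expected CpG was 0.316 in Pcdhga4 and 0.484 in Pcdhga5. These lie just below and just above the range of the called genes, 0.318 in Pcdhga1 to 0.466 in Pcdhga3.

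Along the array, Pcdhga4 and Pcdhga5 lie between called genes. Pcdhga1, Pcdhga2 and Pcdhga3 start within 12.5 kb of each other, Pcdhga4 and Pcdhga5 start at 23.4 and 32.6 kb from the start of Pcdhga1, and Pcdhga6 follows at 45.2 kb. Between Pcdhga4 and Pcdhga5 lies Pcdhgb2, named here like Pcdhgb1 for its position, which was called higher with a log2 fold change of 1.33 ± 0.16. The long noncoding RNA gene 3222401L13Rik, on the same strand, ends 50 bases before the start of Pcdhga1. Its counts were 30, 24 and 22 in control and 292, 337 and 366 in mutant libraries, a log2 fold change of 3.84 ± 0.15 (edgeR adjusted p = 3.23e-11). That gene was chosen after its values were seen, and its relation to the level of Pcdhga1 was not tested.

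**Figure D4:**
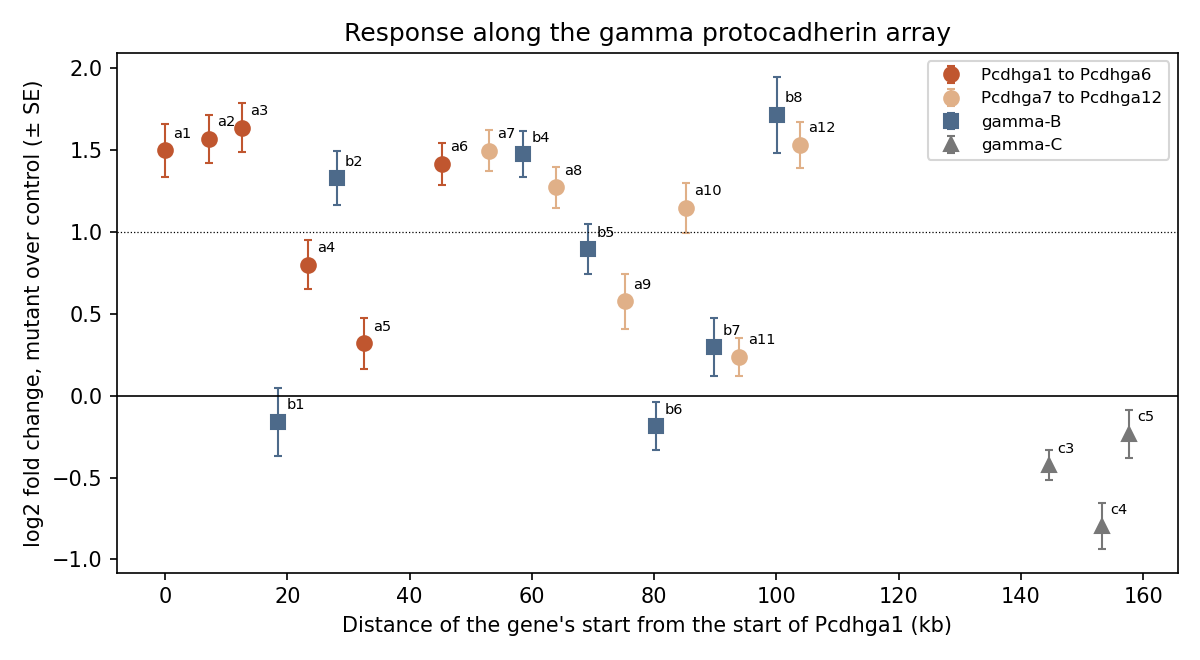
Log2 fold change of each of the 22 gamma genes against the distance of its start from the start of Pcdhga1, in kb. Bars are 1 SE and the dotted line marks a 2-fold increase. Pcdhga1, Pcdhga2, Pcdhga3 and Pcdhga6 lie above the line, Pcdhga4 and Pcdhga5 below it, and the 3 gamma-C genes lie below 0.

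Of the other gamma-A genes, Pcdhga7 to Pcdhga12, 4 of 6 were called higher, their median log2 fold change was 1.21, and the values ran from 0.24 for Pcdhga11 to 1.53 for Pcdhga12. Of the 7 gamma-B genes 3 were called higher, with a median of 0.89 and values from -0.19 for Pcdhgb6 to 1.72 for Pcdhgb8. The gamma-C genes, which are expressed under separate control, had 0 of 3 called, and 2 of 3 an adjusted p below 0.05 with a lower level. Of all 16731 tested genes 1 was called lower. The share of all tested genes with an adjusted p below 0.05 and a lower level is not given here. Pcdhgc4, needed for the survival of interneurons, fell by 0.80 on the log2 scale (edgeR adjusted p = 0.00723), with edgeR adjusted p = 0.0647 without control replicate 3 and 0.0625 without mutant replicate 2. Pcdhgc5 had a log2 fold change of -0.23. The 6 genes made up a larger part of the gamma RNA in mutant brains. Their share of the summed CPM of all 22 genes was 12% to 12.5% in control and 22.9% to 23.3% in mutant libraries, and their share of the 19 gamma-A and gamma-B genes was 27.7% to 29.6% and 33.9% to 34.2%. Their share of the 12 gamma-A genes was 38.2% to 39.9% and 42.8% to 43.2%. Mean summed CPM also rose for Pcdhga7 to Pcdhga12, from 71.2 to 154.5, and for gamma-B, from 42.9 to 71.2. That of gamma-C, the largest in both groups, fell from 216 to 161.

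**Figure D5:**
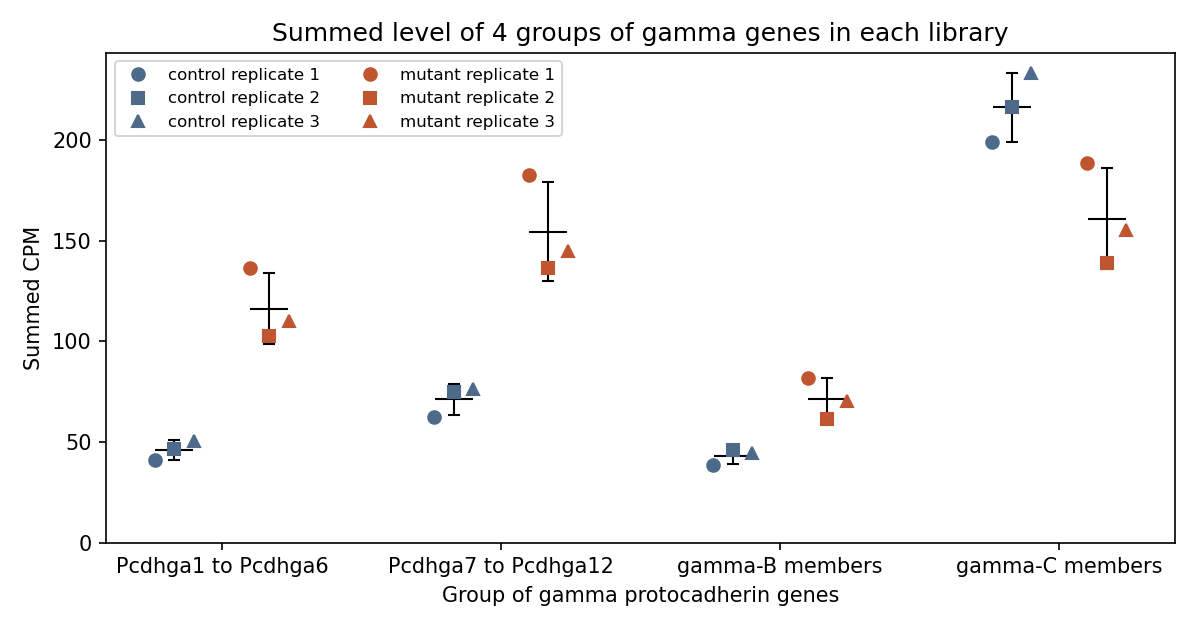
Summed CPM of 4 groups of gamma genes in each library, with group means and SD (n = 3). The sum over Pcdhga1 to Pcdhga6 is 40.9 to 50.7 CPM in control and 102.5 to 136 CPM in mutant libraries, while the gamma-C sum is lower in mutant libraries.

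Of 12 regulators of clustered protocadherin promoters, among them Ctcf, the cohesin genes Rad21, Smc1a, Smc3, Stag1 and Stag2, the cohesin loader Nipbl and the methyltransferase genes Dnmt1, Dnmt3b and Setdb1, 0 rose and 0 fell at an adjusted p below 0.05, and their log2 fold changes ran from -0.15 to 0.08. Likewise, of 13 partners and effectors of the gamma proteins, which include the focal adhesion kinase gene Ptk2 and the sheddase gene Adam10, 0 rose and 0 fell, with log2 fold changes from -0.17 to 0.15. At an unadjusted edgeR p below 0.05, and by DESeq2, the count was also 0 in both lists. Over all tested genes 0.532% were higher at an adjusted p below 0.05, and 1089 of 16731 had an unadjusted edgeR p below 0.05. Lists this short would hold few or no such genes at those shares, so the counts do not set them apart from other genes. Of the 40 marker genes of 6 brain cell types only Mog, a myelin gene, passed in edgeR, with a log2 fold change of -0.49 (edgeR adjusted p = 0.0351). That call was lost in the 5 fits that left out a control replicate, mutant replicate 2 or mutant replicate 3, at edgeR adjusted p of 0.0550 to 0.227. By DESeq2, 4 of the 8 oligodendrocyte and 1 of the 4 choroid plexus markers passed. The share of all tested genes that passed by DESeq2 is not given here.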

How the data were processed

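The deposited files give raw read counts per gene for 6 whole-brain libraries of polyadenylated RNA. Per the study's methods the authors trimmed single reads of 50 bases (Trim Galore 0.5.0), removed ribosomal, mitochondrial, phiX and adapter reads (Bowtie2 2.3.4.1), aligned the rest to GRCm38 with STAR and counted reads per gene with featureCounts (Subread 1.6.2). The submitters' processing notes also name DESeq2 1.18.1 and R 3.4.1. The sources used here give neither the strand setting nor the treatment of reads shared by genes. Gene symbols, exons and positions came from the GENCODE annotation of GRCm38, in which 54495 of 54532 identifiers were found.

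Counts were filtered (filterByExpr), scaled by TMM and tested between genotypes with edgeR 4.0.16 in R 4.3.3, without covariates. Genes were called at a Benjamini-Hochberg adjusted p below 0.05 and a change over 2-fold. Errors of log2 fold changes are SE. Alternatives used limma 3.58.1 and DESeq2 1.42.0, other scalings and filters, a GC correction, a replicate block and leaving out each library. The labels do not say whether the animals came from separate litters, and p-values measure the spread between these libraries. No pair of libraries agreed within sampling noise (chi-square per degree of freedom 3.67 to 13.4). Members, lists and the rule for named genes (all 6 members, the targeted gene, the extremes of each other gamma group, list genes past the test and the 5 genes most alike) were chosen with earlier results of these data known. One gene that the rule names is not reported here.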

Additional observations from a re-analysis of the deposited data

How the results depend on the processing

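The 4 called genes were called in all 16 other fits, and 5 with no fold threshold. The median log2 fold change of the 6 ranged from 1.32 without mutant replicate 1 to 1.55 without mutant replicate 2. The log2 ratio of summed CPM ranged from 1.21 to 1.42, and the difference of the mean log2 CPM was 1.19. Same-numbered libraries showed little shared deviation (r = 0.1, -0.047 and 0.08), which cannot exclude that the numbers paired the animals. The replicate block gave 4 called genes and a median of 1.45. Pairs of genes without overlap numbered 9 to 13 when 1 library was left out, with 13 without control replicate 3. Leaving out a library can only narrow the range of a group. This count could therefore not fall below 9, and it is no check on that number. Of 283 alternative values of single genes, 272 kept their direction and their side of the adjusted p threshold of 0.05, and 0 reversed. The 11 that lost that threshold were Mog in 5, Pcdhga4 in 4 and Pcdhgc4 in 2. The 2-fold threshold was not part of this count. Mphosph8 fell short of it without control replicate 3, mutant replicate 2 or mutant replicate 3, at log2 fold changes of -0.85, -0.98 and -0.96. The 6 members had 52 to 204 counts in a control library, which limits the precision of their values.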

Other observations

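Outside the protocadherin clusters, genes whose log2 CPM closely followed the mean of the 6 members over the 6 libraries included Psg16 (Pearson's r = 0.998), Tcfl5 (0.989), Ccdc116 (0.987) and Gm26672 (0.986), of 16675 genes compared. All libraries of 1 genotype share that contrast, and 59 genes had an r over 0.95. Gm26672 was called higher, with a log2 fold change of 1.16 ± 0.15 (edgeR adjusted p = 0.000332). Psg16, Tcfl5 and Ccdc116 did not pass the test, with log2 fold changes from 0.41 to 0.50. Each member was also compared with the mean of the other 5: r was 0.995 for Pcdhga1, 0.994 for Pcdhga3, 0.992 for Pcdhga2, 0.983 for Pcdhga6, 0.957 for Pcdhga4 and 0.861 for Pcdhga5.

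Mutant replicate 1 was the highest mutant library for 6 of 6 members, and mutant replicates 2 and 3 were the lowest for 4 and 2. Among control libraries, replicate 1 was the lowest for 4 members and replicate 3 the highest for 4.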
